A study of Mus musculus with 32 samples.

Results

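The comparison described here was between Y721F macrophages given colony stimulating factor 1 (CSF-1) for 180 min and the same line given it for 60 min. Its members were the 2 arrays of each time whose titles name that line and time, numbered I and II, so 4 of the 32 arrays of the study, and each 180 min array was paired with the 60 min array of the same series number. The study profiled 4 mouse macrophage lines on an M-/- background with Affymetrix Mouse Gene 1.0 ST arrays, each line named after the form of the CSF-1 receptor (CSF-1R) it carries. That receptor carries phosphorylated Tyr-721 in WT and 3ABY721, and it has no tyrosine there in Y721F and 3AB. The culture medium of all lines was α-MEM, supplemented with human CSF-1 (120 ng/mL) and newborn calf serum (10%).

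The Y721F cells had been starved of CSF-1 overnight and then received CSF-1 for 0, 20, 60 or 180 min, with 2 arrays at each time. The WT line had the same time course on 8 other arrays and served as the line with Tyr-721. In a separate experiment with no arrays in common, Y721F cells were either starved (labelled UR) or grown continuously in CSF-1 (labelled CONST), with 2 arrays each. Each form of the receptor was represented by a single line in the time course, so a difference between lines and a difference between receptors cannot be told apart. The arrays are called biological replicates in the design text, but nothing says that they came from separate thaws or days, so the p-values measure the spread between these arrays.

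CSF-1 is the growth, survival and differentiation factor of macrophages, and its receptor is a tyrosine kinase. Adding it to starved cells switches on immediate early genes, which need no new protein synthesis and encode transcription factors and feedback inhibitors, and their products then act on later genes for growth. Phosphorylated Tyr-721 is known as a binding site for phosphatidylinositol 3-kinase, whose product activates AKT and thereby keeps FOXO transcription factors out of the nucleus. An interval that follows the peak of the first wave therefore reads its decline together with the later genes.

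Values are the deposited log2 signals for 19938 genes, so 1 unit is a doubling of signal, and apart from a rough check of marker genes no level of one gene is set against that of another. The 4 arrays had medians between 6.12 and 6.14, within the 5.97 to 6.22 of all 32, and the correlation of replicates over genes was 0.991 at 60 min and 0.994 at 180 min. Macrophage markers stood high in the 4 arrays, with 15 of 16 above the median gene (6.49) and 12 of 16 above the upper quartile (8.81), and Csf1r at 12.94 on average. None of 17 granulocyte and mast cell markers (0) and none of 11 lymphocyte markers (0) was above the median gene, against 1 of 10 dendritic cell markers, 5 of 13 fibroblast markers and 6 of 10 osteoclast markers. Csf1r itself read 13.00 and 12.89 at 60 min and 13.01 and 12.86 at 180 min.

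Between 60 and 180 min, 43 genes rose and 78 fell in Y721F cells. The 4 largest falls were in immediate early transcription factors (Nr4a1, Egr1, Egr2 and Fosb), followed by the p53-induced stress gene Trp53inp1, the adhesion protein Flrt3 and the feedback inhibitor Errfi1. The 43 were led by the actin-nucleating formin Fmnl2, the transcriptional repressor Bcl6, several zinc finger genes and the osteoclast-associated proton pump subunit Atp6v0d2. A gene was called where its adjusted p in limma was under 0.05 and its fold was above 1.5. The 121 called genes were 0.607% of those tested, with 0.216% higher and 0.391% lower. The median fold was 1.81 among the genes that rose, 10 of which passed 2-fold, and 1.82 among those that fell, 34 of which passed 2-fold.

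All 43 rises and all 78 falls had the same sign in both series, as did 61.7% of all genes. Both 180 min arrays lay on one side of both 60 min arrays in all 43 rises and 77 of the 78 falls. The share of all genes so separated was not counted. The call itself favours both the shared sign and the separation. The change was the larger in series I for 38 of the 43 rises and for 69 of the 78 falls. The medians were 0.98 in series I and 0.71 in series II for the rises, and -1.06 and -0.76 for the falls. Without the series number as a block, 6 genes passed: Bcl6, Nr4a1, Egr1, Fosb, Flrt3 and Rhob. Leaving out 1 array, which leaves its series with no pair, gave 8 genes without 60 min I, 67 without 60 min II, 4 without 180 min I and 45 without 180 min II, and Bcl6, Nr4a1, Egr1 and Flrt3 were called in each case.

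**Figure D1:**
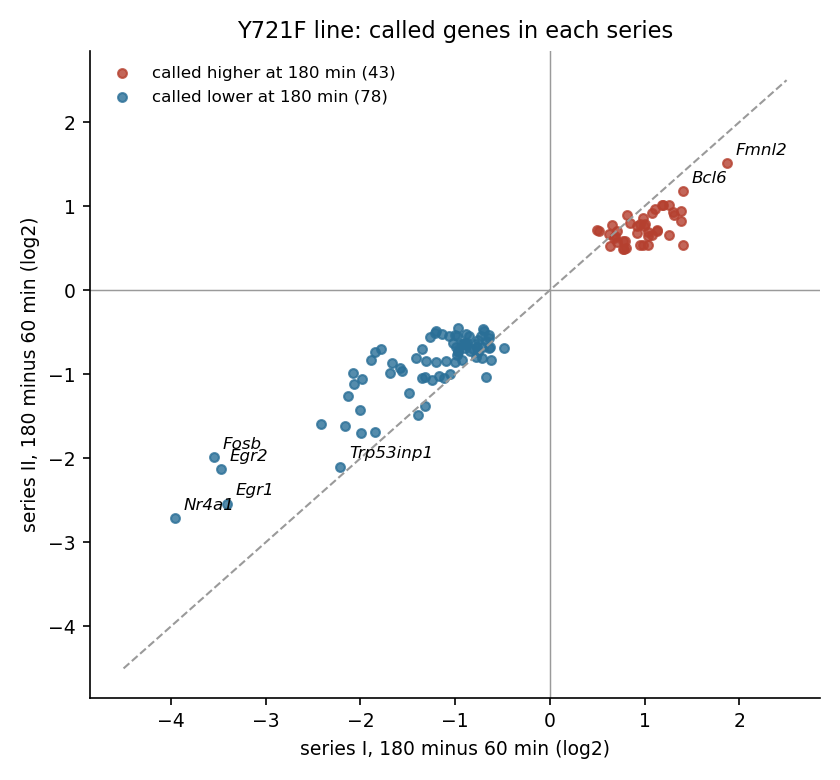
Difference between 180 and 60 min in series I (horizontal axis, log2) against series II (vertical axis, log2) for the 121 called genes of the Y721F line, red for the 43 higher and blue for the 78 lower. Every point lies in the quadrant of a shared sign, and most lie closer to the horizontal axis than the dashed line of equal change, since 38 of the 43 rises and 69 of the 78 falls were larger in series I.

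The immediate early genes carried the largest falls. To show what sequence lies in front of such genes, the 250 bases before the transcription start are given for 6 genes that fell, from RefSeq on GRCm38.p6, read on the gene's strand. In the first 3 the capitals mark CArG boxes, the core of the serum response element, at chr10:67537316-67537565 on the plus strand for Egr2 (1 of 5 listed starts), chr17:46556163-46556412 on the minus strand for Srf and chr19:53528895-53529144 on the plus strand for Dusp5.
Egr2: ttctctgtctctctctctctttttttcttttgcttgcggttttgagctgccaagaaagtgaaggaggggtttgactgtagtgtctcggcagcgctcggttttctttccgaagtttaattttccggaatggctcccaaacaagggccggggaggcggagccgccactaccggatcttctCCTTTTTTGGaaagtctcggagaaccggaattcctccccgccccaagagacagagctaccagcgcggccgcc
Srf: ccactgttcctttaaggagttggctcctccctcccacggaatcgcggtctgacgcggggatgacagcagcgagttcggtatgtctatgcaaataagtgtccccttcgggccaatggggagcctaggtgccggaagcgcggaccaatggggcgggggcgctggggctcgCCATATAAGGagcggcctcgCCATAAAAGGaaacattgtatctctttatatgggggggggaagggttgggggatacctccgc
Dusp5: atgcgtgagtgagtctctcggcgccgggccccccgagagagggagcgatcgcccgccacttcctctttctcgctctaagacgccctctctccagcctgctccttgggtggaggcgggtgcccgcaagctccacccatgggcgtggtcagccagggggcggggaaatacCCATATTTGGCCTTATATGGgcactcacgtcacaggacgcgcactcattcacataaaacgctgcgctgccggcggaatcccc
In the next 2 the capitals mark an EGR site (GCGNGGGCG on either strand), at chr15:101266596-101266845 on the plus strand for Nr4a1 and chr7:19310046-19310295 on the minus strand for Fosb.
Nr4a1: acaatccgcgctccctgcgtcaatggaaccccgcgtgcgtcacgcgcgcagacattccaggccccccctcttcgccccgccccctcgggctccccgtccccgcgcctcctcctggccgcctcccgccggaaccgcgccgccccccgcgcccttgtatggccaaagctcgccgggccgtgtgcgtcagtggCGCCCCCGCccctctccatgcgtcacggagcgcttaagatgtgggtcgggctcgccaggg
Fosb: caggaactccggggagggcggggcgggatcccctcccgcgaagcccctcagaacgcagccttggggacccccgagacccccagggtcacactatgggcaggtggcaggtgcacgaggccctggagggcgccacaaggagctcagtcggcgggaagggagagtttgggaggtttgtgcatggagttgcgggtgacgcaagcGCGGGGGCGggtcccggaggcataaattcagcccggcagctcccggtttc
In the last, at chr17:26508473-26508722 on the minus strand, they mark a cAMP response element (TGACGTCA).
Dusp1: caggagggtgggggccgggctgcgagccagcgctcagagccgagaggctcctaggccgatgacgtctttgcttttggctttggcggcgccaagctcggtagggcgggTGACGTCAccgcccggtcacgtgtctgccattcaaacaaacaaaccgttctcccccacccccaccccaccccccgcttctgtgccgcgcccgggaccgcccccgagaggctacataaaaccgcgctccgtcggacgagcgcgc

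Of the 78 genes that fell, 65 had a promoter in the RefSeq table, as did 33 of the 43 that rose. A gene counted as having a motif if the window of any of its listed starts held a match, so genes with more starts had more chances. A CArG box was found for 5 of the 65 (7.69%: Egr2, Srf, Dusp5, Cldn12 and Ints6l) and for 0 of the 33. The share was 1.45% of all 15614 tested genes with a promoter. An EGR site lay in 13 of the 65 (20%), in 4 of the 33 (12.1%) and in 7.93% of all. For the cAMP response element the numbers were 4 of 65 (6.15%), 1 of 33 (3.03%) and 2.33%, and for its shorter form TGACGT, which the longer contains, 14 of 65 (21.5%), 4 of 33 (12.1%) and 8.95%. Other motifs lay nearer to the share of all genes with a promoter among the genes that fell. AP-1 (TGANTCA) lay in 4.62% against 7.12%, the E-box (CACGTG) in 10.8% against 8.11% and FOXO (TGTTTAC) in 6.15% against 3.18%. NF-κB lay in 12.3% against 9.49%, the interferon-stimulated response element in 4.62% against 3.4% and the sterol response element (TCACNCCAC) in 0% against 1.2%. These 10 motifs were searched on both strands and chosen with the calls in view, and a match describes letters only.

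Among transcription factors of the first wave, Nr4a1, an orphan nuclear receptor, read 11.44 in series I and 10.52 in series II at 60 min and 7.48 and 7.81 at 180 min. Both 180 min arrays were far below both 60 min arrays and close to the 7.23 and 7.93 recorded at 0 min. The fall was 3.33 on the log2 scale, or 10.1-fold (SE 0.28, limma adjusted p = 0.000501). Egr1, a zinc finger factor induced through ERK, went from 10.43 and 9.30 to 7.02 and 6.76, which are levels near its 6.56 and 6.24 before CSF-1. Its log2 difference was -2.98 (SE 0.20, adjusted p = 9.25e-05), or 7.86-fold. Its relative Egr2 stood at 10.69 and 8.50 at 60 min, a wide gap between series, and at 7.22 and 6.37 at 180 min. The difference was -2.80 (SE 0.40, adjusted p = 0.0144), with no overlap between the times.

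The FOS family had several courses. Fosb, an AP-1 subunit, read 9.19 and 7.87 at 60 min against 5.65 and 5.88 at 180 min, a log2 difference of -2.77 (SE 0.30, adjusted p = 0.0023). Fosl2, which encodes FRA-2, went from 10.93 and 10.26 to 8.80 and 9.0, a difference of -1.70 (SE 0.21, adjusted p = 0.00641). Fos itself had peaked earlier, with 11.36 and 11.29 at 20 min against 8.53 and 8.18 at 60 min. At 180 min it read 9.48 and 9.18, above both 60 min arrays, but its difference of 0.97 was not called (SE 0.27, adjusted p = 0.115). With the Y721F arrays fitted alone it was called (adjusted p = 0.0387), and without the block its adjusted p was 0.619. Fosl1 differed by 0.09 and was not called.

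Of the 30 immediate early genes measured, 11 fell and 0 rose, against 0.391% and 0.216% of all genes, and their median difference was -0.81 against -0.01 for all genes. In both series 24 of the 30 were lower at 180 min, or 80%, against 33% of all genes. The other members that fell were Arc (-1.84), Nr4a2 (-1.72), Atf3 (-1.24), Ier2 (-1.02), Ier5 (-0.82) and Srf (-0.69), the last the factor that binds CArG boxes. Klf2 (-1.04), Egr3 (-1.26), Btg2 (-1.41) and Myc (-0.80) were not called, with adjusted p of 0.126, 0.0687, 0.0687 and 0.141. Myc, which drives growth and ribosome genes, was highest at 60 min (10.38 and 9.46) and at 180 min (9.42 and 8.83) was still above its 0 min levels of 7.04 and 6.84. Without 180 min I, 2 of the 30 were called, and without 60 min I, 3.

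**Figure D2:**
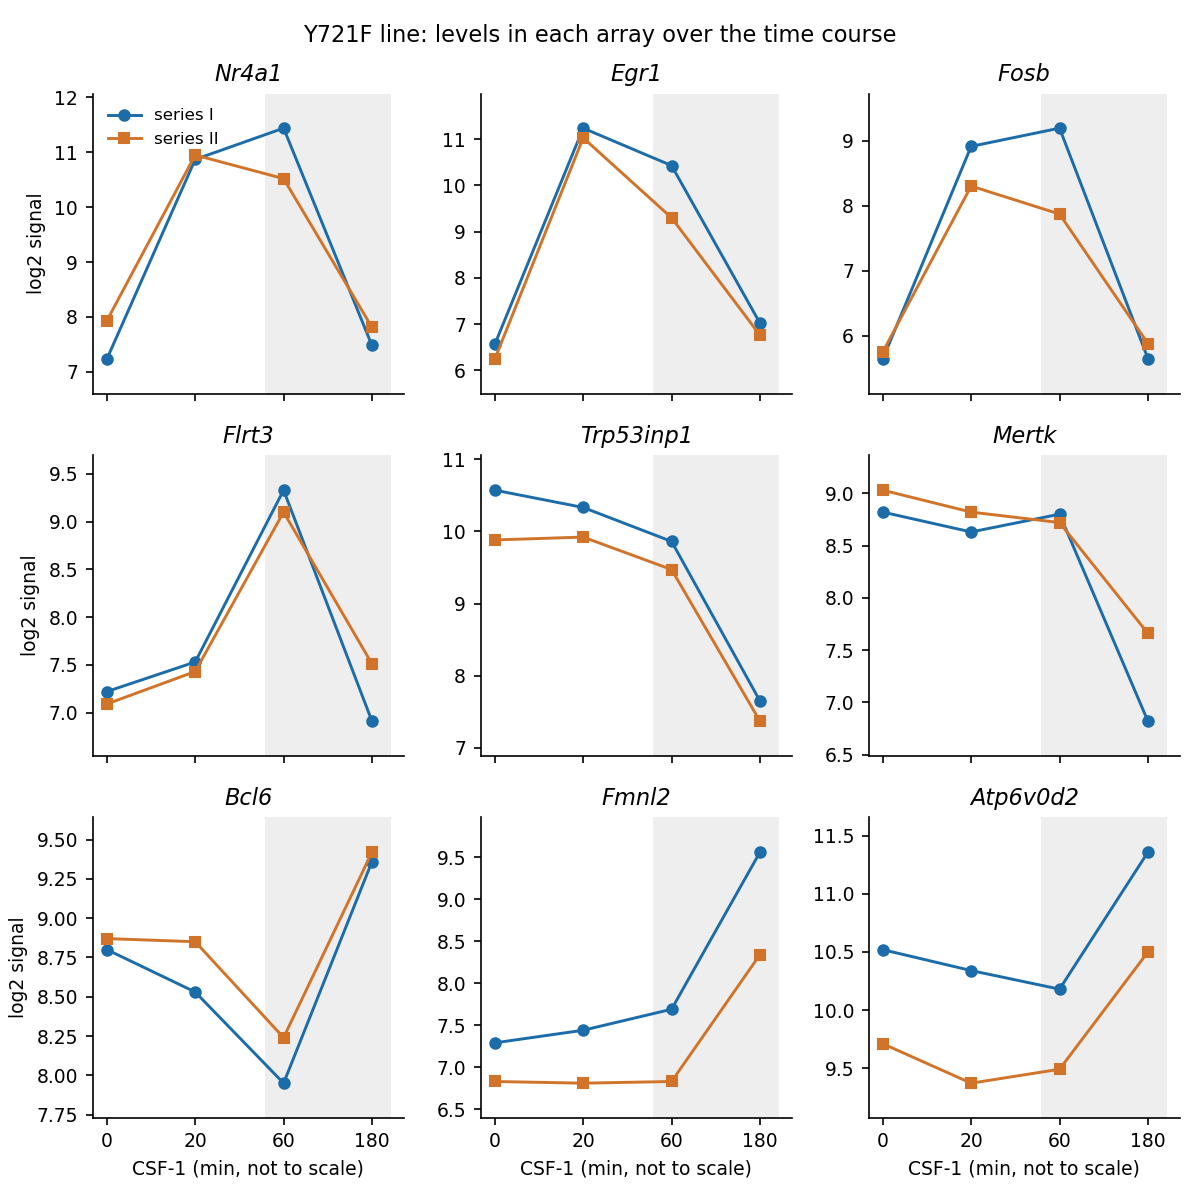
Log2 signal (vertical axis) of 9 genes in the 8 Y721F time course arrays at 0, 20, 60 and 180 min of CSF-1 (horizontal axis, not to scale), series I as blue circles and series II as orange squares, with the interval compared shaded. Nr4a1, Egr1 and Fosb are high at 20 and 60 min and low at 180 min, Flrt3 is high at 60 min alone, Trp53inp1 and Mertk drop after 60 min, and Bcl6, Fmnl2 and Atp6v0d2 are highest at 180 min in both series.

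The list of ERK feedback inhibitors and ERK-driven ETS factors had members on both sides. Of 20 measured, 3 fell and 0 rose, against 0.391% and 0.216% of all genes, and the median difference was 0.03. None was called (0) without 180 min I or without the block, and 1 was called without 60 min I. Errfi1, which binds and inhibits receptors of the EGF family, read 11.43 and 10.74 at 60 min and 9.27 and 9.13 at 180 min, still above the 8.48 and 8.57 before CSF-1. It fell by 1.89 on the log2 scale (SE 0.20, adjusted p = 0.00178). The phosphatases Dusp5, which acts on nuclear ERK, and Dusp1, which acts on p38 and JNK as well, fell by 1.36 and 1.07 (adjusted p = 0.0447 and 0.0387).

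Dusp6, the cytoplasmic ERK phosphatase, and the ETS factor Etv5, an ERK-driven gene, lay on the other side. Etv5 read 7.12 and 7.24 at 60 min and 8.66 and 8.64 at 180 min, with no overlap, and Dusp6 read 9.08 and 8.86 against 9.86 and 9.56. Neither was called, with differences of 1.47 (SE 0.34, adjusted p = 0.0731) and 0.74 (SE 0.21, adjusted p = 0.121). Spry1 and Spry2, inhibitors of RAS signalling, differed by 0.13 and -0.15, and Dusp4 by -0.58, none of them called. Of 14 SOCS and other cytokine signalling brakes, 1 fell, against 0.391% of all genes. This was Socs3, which went from 9.98 and 8.95 to 7.90 and 7.97, a difference of -1.53 (SE 0.30, adjusted p = 0.0459). Socs3 was not called without the block or with quantile normalization. With the mean of its probe sets its difference was -1.03, and it was not called there either.

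Other large falls included those of Flrt3, Rhob and Mertk. Flrt3, a membrane protein that mediates cell adhesion, was low at 20 min (7.53 and 7.43), read 9.33 and 9.10 at 60 min and was back at 6.91 and 7.51 at 180 min. The times did not overlap, and the fall was 2.0 on the log2 scale, or 4.01-fold (SE 0.19, adjusted p = 0.00117). Rhob, a small GTPase of endosomes and the cytoskeleton, went from 10.46 and 10.07 to 8.61 and 8.38, a difference of -1.77 (SE 0.18, adjusted p = 0.00178).

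Mertk encodes a receptor kinase with which macrophages take up apoptotic cells. Its level hardly varied from 0 to 60 min (8.63 to 9.03 over 6 arrays) and was 6.82 and 7.66 at 180 min, below all of them. The 60 to 180 min difference was -1.52 (SE 0.21, adjusted p = 0.0142). It was the one called gene among 19 uptake, scavenger and chemoattractant receptors, whose median was 0.07, and among 16 macrophage markers, whose median was -0.01. Over all genes 0.607% were called. The mean level of those 16 markers was 10.84 and 10.71 at 60 min and 10.64 and 10.70 at 180 min.

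Genes linked to starvation and FOXO factors were lower at 180 min in most cases. Of 26 measured, 3 fell and 1 rose, against 0.391% and 0.216% of all genes. The median difference was -0.36, and 21 were lower in both series, or 80.8% against 33% of all genes. Trp53inp1, which promotes autophagy and p53 activity, read 9.86 and 9.47 at 60 min and 7.65 and 7.37 at 180 min, a difference of -2.15 (SE 0.36, adjusted p = 0.0309). Klf9, a Krüppel-like repressor, and Irs2, the insulin receptor substrate, fell by 0.85 and 0.84 (adjusted p = 0.0333 and 0.0446).

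The member that rose was Bcl6, a repressor that FOXO factors induce. It read 7.95 and 8.24 at 60 min, below the 8.80 and 8.87 of unstimulated cells, and 9.36 and 9.42 at 180 min, above them. The rise was 1.29 on the log2 scale, or 2.45-fold (SE 0.10, adjusted p = 0.000296), with series differences of 1.41 and 1.18. Txnip, an inhibitor of glucose uptake, lay the same way without being called, at 9.87 and 8.63 against 11.09 and 9.76 (adjusted p = 0.06), and Klhl24 lay the other way, at 10.19 and 9.84 against 8.40 and 8.22 (adjusted p = 0.0508). With the Y721F arrays fitted alone, 11 of the 26 were called, against 402 of all 19938 genes.

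Among the genes that rose, Fmnl2 had the largest difference. This formin, which nucleates actin filaments at the cell edge, read 7.69 and 6.83 at 60 min and 9.56 and 8.34 at 180 min. Series I was the higher at both times, the times did not overlap, and the rise was 1.69, or 3.23-fold (SE 0.23, adjusted p = 0.0109).

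At the cell surface, Megf10, an engulfment receptor, went from 7.50 and 7.33 to 8.70 and 8.35, and the immunoglobulin-family adhesion protein Igsf11 from 8.95 and 8.85 to 10.26 and 9.75. The differences were 1.11 (SE 0.19, adjusted p = 0.0329) and 1.10 (SE 0.17, adjusted p = 0.0167), with no overlap for either. Slc45a3, a member of a sugar transporter family, rose by 1.04 (SE 0.11, adjusted p = 0.00178), Efr3b, which anchors a phosphatidylinositol 4-kinase at the plasma membrane, by 1.16, and Chst11, a chondroitin sulphotransferase, by 1.11.

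Of 10 osteoclast markers, 2 rose and none fell (0), against 0.216% and 0.391% of all genes, and the list's median was 0.07. Atp6v0d2, the subunit of the vacuolar proton pump that is enriched in osteoclasts, read 10.18 and 9.49 at 60 min and 11.36 and 10.50 at 180 min. Its rise was 1.09 (SE 0.13, adjusted p = 0.00558), near equal in the series (1.18 and 1.01). Ocstamp, a membrane protein of osteoclast fusion, rose from 7.27 and 8.08 to 8.40 and 8.80, a difference of 0.93 (SE 0.13, adjusted p = 0.0142). For both genes the difference was no longer called without 60 min I or without 180 min I.

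Genes of ribosome assembly were higher at 180 min throughout, although no single one was called. In both series 43 of 43 measured members were higher, or 100% against 28.7% of all genes, the median difference was 0.67 (0.77 in series I, 0.60 in series II), and 28 of the 43 differed by more than 1.5-fold upward, as did 315 of all 19938 genes. Dkc1, the pseudouridine synthase of small nucleolar ribonucleoproteins, read 7.97 and 8.69 at 60 min and 9.41 and 9.38 at 180 min. Nop56, a core protein of such particles, read 10.39 and 10.94 against 11.46 and 11.67, and Polr1b, the second largest subunit of RNA polymerase I, read 8.58 and 9.04 against 9.69 and 9.95. The times did not overlap for any of the 3.

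The differences of these genes were 1.06 (SE 0.38, adjusted p = 0.217), 0.90 (SE 0.26, adjusted p = 0.132) and 1.01 (SE 0.31, adjusted p = 0.158). The list ran from 0.16 for Pes1 to 1.06. The standard errors come from both lines, and with the Y721F arrays fitted alone 23 of the 43 were called, against 402 of all 19938 genes. Urb1, a ribosome biogenesis factor outside the list and named after its value was seen, was called in the fit of both lines, at 7.58 and 7.77 against 8.66 and 8.69 (1.00, SE 0.20, adjusted p = 0.0457).

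**Figure D3:**
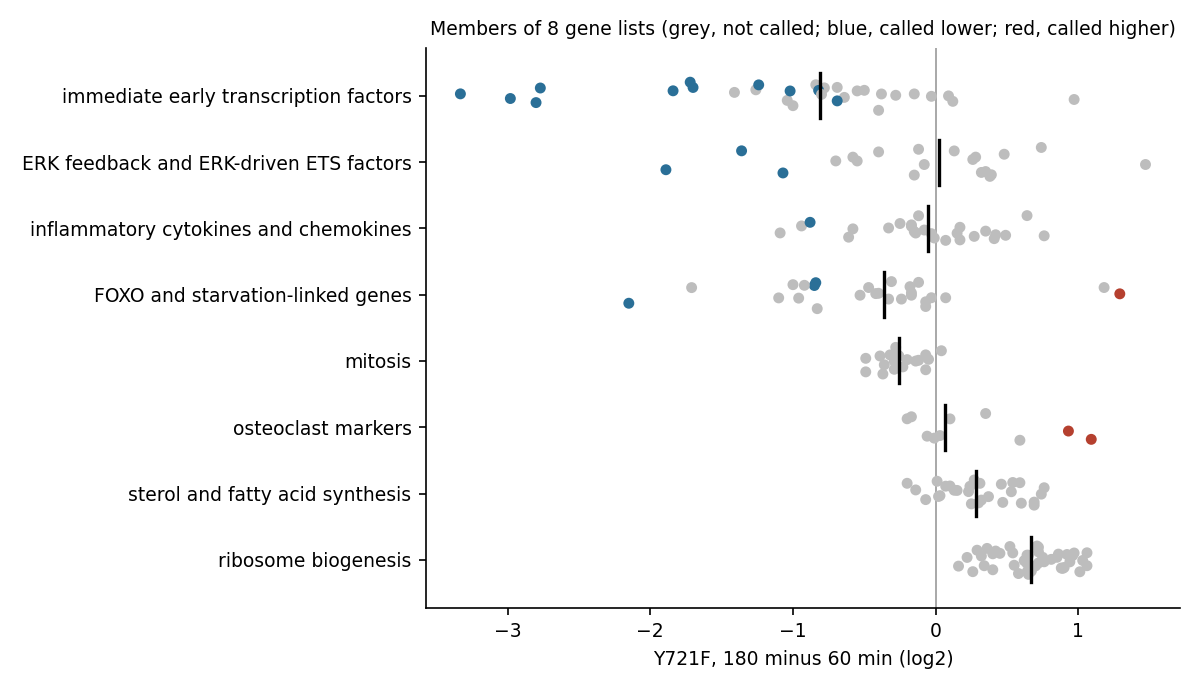
Difference between 180 and 60 min in Y721F cells (horizontal axis, log2) for every measured member of 8 gene lists, grey where not called, blue where lower and red where higher, with a black bar at each list's median. All ribosome biogenesis genes lie right of 0 without a call (median 0.67), immediate early genes reach furthest left (median -0.81), and the osteoclast list has 2 red points away from a median of 0.07.

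Lists of lipid synthesis, nucleotide synthesis and chaperones held no called gene. Over all genes 0.607% were called, so a count of 0 in lists this short is no result about their members. Of 28 sterol and fatty acid synthesis genes 0 were called, with a median of 0.28 and 21 higher in both series (75%, against 28.7% of all genes). Cyp51, a demethylase of cholesterol synthesis, read 8.88 and 9.24 at 60 min and 9.97 and 9.66 at 180 min (0.76, SE 0.25, adjusted p = 0.177). None of 23 nucleotide and one-carbon genes (0) was called, with a median of 0.23 and 14 higher in both series, and none of 21 chaperones and unfolded protein response genes (0), with a median of 0.14 and 14 higher in both series. Glycolysis genes had a median of 0.00 over 18, with 0 called. Calls were also 0 among 13 polyamine and amino acid transport genes (median 0.15), 9 LXR targets (-0.04), 20 G1 cyclins and CDK inhibitors (-0.15) and 24 genes of the urokinase system, matrix proteases and adhesion (7 higher and 7 lower in both series). Of 18 genes of the amino acid stress response Sesn2, an inhibitor of mTORC1 signalling, fell by 1.02 (adjusted p = 0.0135). Over all genes 0.391% fell.

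Most genes of DNA replication and mitosis were slightly lower at 180 min. The medians of 22 DNA replication genes and 19 mitosis genes were -0.11 and -0.26. In both series 17 of the 19 mitosis genes were lower (89.5%, against 33% of all genes), as were 15 of the 22 replication genes (68.2%). None of them was called (0), against 0.607% of all genes, a share at which lists this short are likely to hold no call. Ccnd1, the D-type cyclin that growth factors induce, read 9.50 and 9.86 at 60 min and 11.27 and 11.06 at 180 min, with no overlap. That difference of 1.49 was not called in the fit of both lines (SE 0.53, adjusted p = 0.211). With the Y721F arrays fitted alone it was called (adjusted p = 0.0117), and without the block its adjusted p was 0.942. In WT cells Ccnd1 read 12.43 and 9.30 at 60 min, far apart between the series.

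Of 26 inflammatory cytokines and chemokines 1 was called over this interval, against 0.607% of all genes. This was Osm, a cytokine of the IL-6 family, which fell from 7.97 and 7.54 to 6.99 and 6.77 (-0.88, SE 0.17, adjusted p = 0.0446). Il1b read 6.65 and 6.49 against 5.15 and 5.80, without overlap and without a call (adjusted p = 0.0626). Tnf (0.49), Ptgs2 (0.27), Ccl2 (0.07), Il1rn (0.50) and Arg1 (0.15) were not called. Neither was any of 16 NF-κB genes (0) or of 21 interferon response genes (0). At the share called over all genes, lists this short are likely to hold no call. Of 18 genes reported as targets of miR-21, the microRNA named in the study's title, Rhob fell and Tiam1 rose. Over all genes 0.391% fell and 0.216% rose. The median of the 18 was -0.10, and Pdcd4, a translation inhibitor, read 9.34 and 8.68 against 8.42 and 7.42 without a call (adjusted p = 0.198).

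The same interval in WT cells was compared with that in Y721F cells to ask whether the line without Tyr-721 answered differently. In WT, 52 genes were called (0.261%), 9 higher (0.0451%) and 43 lower (0.216%). Of the 43 genes that rose in Y721F, 42 were also higher in WT, with a WT median of 0.49, and all 78 that fell were lower in WT, with a median of -0.77. Over all genes the lines shared the sign in 65.2%. Of the genes called in Y721F, 6 of 43 rises (14% of them, 66.7% of the 9 in WT) and 29 of 78 falls (37.2% of them, 67.4% of the 43 in WT) were called in WT the same way, and 0 the opposite way.

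The difference of the responses, tested itself, gave 0 called genes (0%), the lowest adjusted p in limma was 0.997, and 535 of 19938 genes had an unadjusted p under 0.05. The Y721F minus WT difference was 0.30 for Nr4a1 (95% interval -0.58 to 1.18), -0.26 for Egr1 (-0.86 to 0.35) and 0.07 for Bcl6 (-0.24 to 0.39). These intervals included 0, while those of some other leading genes, given below, did not. Without WT 60 min II, 2 genes were called for the difference of the responses.

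Among the 121 called genes of Y721F, 15 had an unadjusted limma p under 0.05 for the difference, against 535 of all 19938 genes. None of the 15 passed adjustment over all genes. Choosing genes by their Y721F change on the same arrays favours such p-values and intervals away from 0, so they give no separate evidence of a difference. Megf10 read 5.96 and 6.08 in WT at 60 min and 5.86 and 6.17 at 180 min, so it stood lower than in Y721F at both times and differed by -0.01 (difference of responses 1.11, 95% interval 0.53 to 1.70). Atp6v0d2 read 9.25 and 8.84 in WT at 60 min and 9.64 and 9.04 at 180 min, with overlap (0.80, 0.40 to 1.20). Slc45a3 (0.62, 0.29 to 0.95), Ocstamp (0.51, 0.10 to 0.92) and Rhou (0.57, 0.07 to 1.07), leaned the same way, and Bbs10, a chaperonin-like protein of the cilium, the other way (-1.09, -1.74 to -0.45). Flrt3 (-0.74, -1.33 to -0.15) and Egr2 (-1.32, -2.57 to -0.07) lay on the side of a larger fall in Y721F. In WT, Il1b fell by 1.98, and its difference of responses was 0.89 (0.15 to 1.62).

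**Figure D4:**
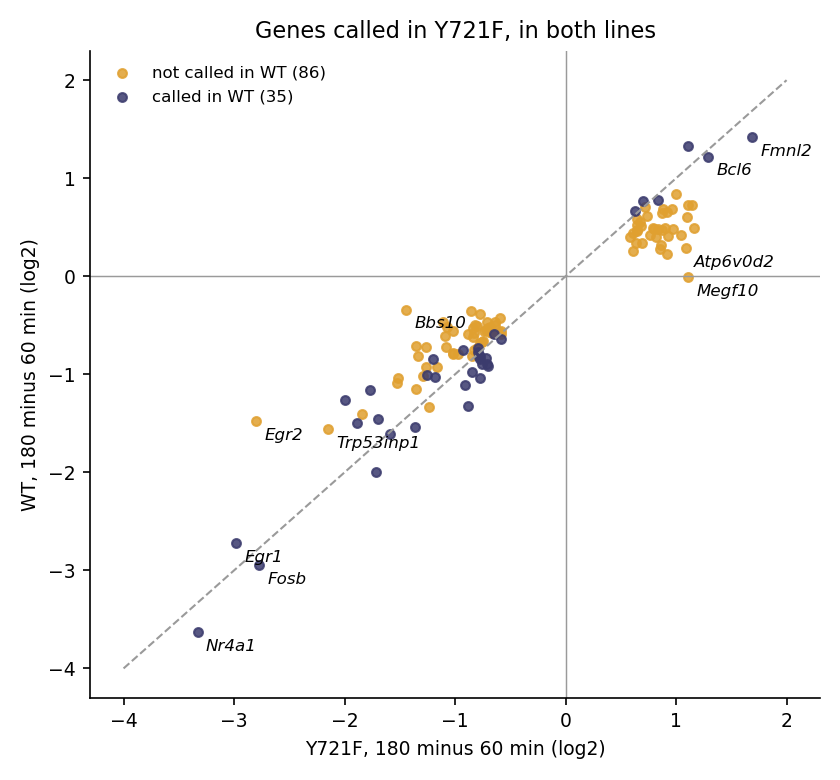
Difference between 180 and 60 min in Y721F cells (horizontal axis, log2) against WT cells (vertical axis, log2) for the 121 genes called in Y721F, dark where also called in WT (35) and yellow where not. Points below the dashed line of equal change on the right and above it on the left had the larger difference in Y721F, as 99 of the 121 did, which choosing the genes by their Y721F call favours, and Megf10 lies at -0.01 in WT.

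The WT 60 min arrays differed from each other in the genes of growth. The ribosome biogenesis list had a median WT difference of 0.38, made of -0.13 in series I and 0.94 in series II. Dkc1 for example read 9.50 and 7.75 in WT at 60 min and 9.28 and 9.38 at 180 min. Without WT 60 min I the WT count was 257, and without 60 min II, 180 min I or 180 min II it was 16, 11 or 3.

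Cells of the same line in steady state, on other arrays, gave a further readout of the called genes. In Y721F cells grown in CSF-1 against starved cells, 1134 genes were called (5.69%), 806 higher (4.04%) and 328 lower (1.65%). Quantile normalization moved this split to 565 higher and 508 lower. Of the 43 genes that rose from 60 to 180 min, 9 were higher in grown cells (20.9%) and 0 lower. Of the 78 that fell, 8 were higher in grown cells (10.3%) and 5 lower (6.41%). Without the series II array of either steady-state group 119 genes were called in all.

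The 9 were Igsf11, Megf10, Slc45a3, Efr3b, Arhgap44, Rhou, Smurf1, Itpk1 and Pdp2. Megf10 read 6.91 and 6.50 in starved and 8.32 and 8.26 in grown cells, a difference of 1.58 (SE 0.19, adjusted p = 0.00181). Igsf11 read 8.49 and 7.87 against 9.27 and 9.68, a difference of 1.29 (SE 0.22, adjusted p = 0.00832). Bcl6 and Fmnl2 were not called in steady state, with differences of 0.24 and 0.14.

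Neither Nr4a1 nor Egr1 was called between grown and starved cells. Nr4a1 read 7.46 and 8.14 in starved cells and 7.67 and 7.69 in grown cells, close to its level at 180 min, and Egr1 read 6.81 and 7.03 against 6.33 and 8.12. Errfi1 was higher in grown cells, at 8.60 and 10.07 against 7.19 and 7.60 (1.94, SE 0.24, adjusted p = 0.0022). The 5 that fell and were lower in grown cells were Mertk, Trp53inp1, Frmd4b, Dapk1 and Rmnd5a. Mertk had the largest of these differences, with 8.12 and 8.42 in starved and 5.43 and 5.48 in grown cells (-2.81, SE 0.17, adjusted p = 6.6e-05). Counting Mertk in both lists, 7 of 16 macrophage markers (median -0.66) and 7 of 19 uptake, scavenger and chemoattractant receptors (median -0.54) were called lower in grown cells, against 1.65% of all genes, and their part in the result for Mertk was not tested.

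**Figure D5:**
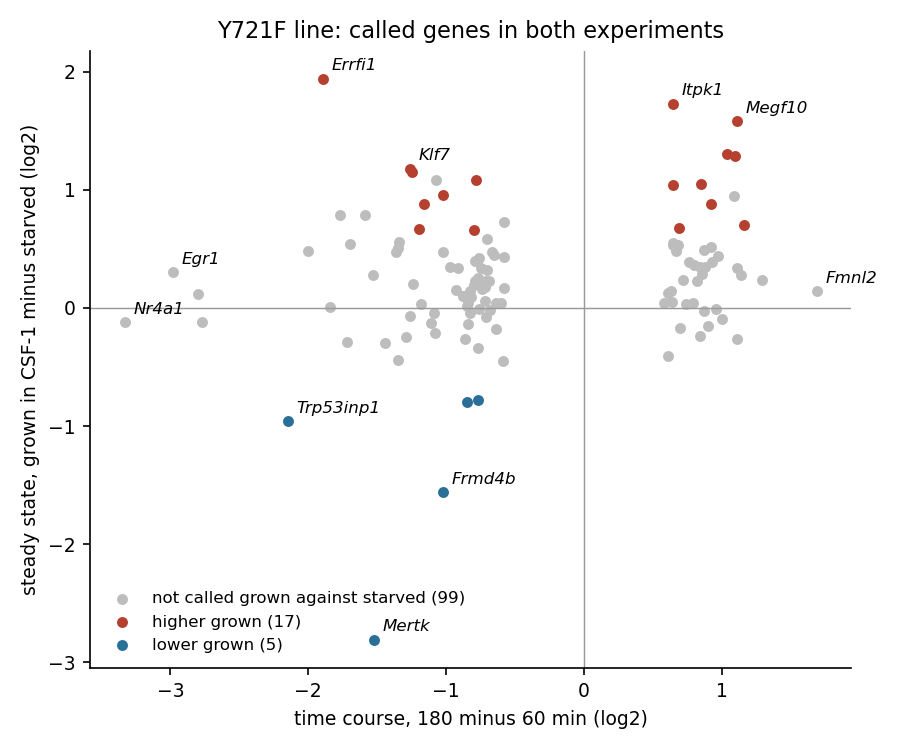
Difference between 180 and 60 min of CSF-1 (horizontal axis, log2) against the difference between cells grown in CSF-1 and starved cells (vertical axis, log2) for the 121 called genes of the Y721F line, grey where not called in steady state, red where higher in grown cells and blue where lower. Nr4a1 and Egr1 lie far left near 0 on the vertical axis, Errfi1 lies left and high, Mertk lies left and lowest at -2.81, and no gene that rose is blue.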

How the data were processed

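RNA of 32 cultures was hybridised to 1-colour Affymetrix Mouse Gene 1.0 ST arrays, 2 per group, from RNA of integrity number above 9.5 per the labels' design text. The authors deposited log2 signals for 35556 probe sets. That scale was read from the values, and how background, summarization and normalization were handled is, like the build, not given in the sources used here. Of these, 21789 name 1 gene in the array's annotation and were used, 1621 name several and 12146 have no entry. The probe set with the highest mean stood for each of 19938 genes.

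The 16 time course arrays entered 1 linear model in limma 3.58.1 (lmFit, then eBayes; R 4.3.3). It had group means, a block for the series number of each line and 6 residual degrees of freedom (prior 5.75). The 16 steady-state arrays were fitted likewise. All p-values are limma's, adjusted by Benjamini-Hochberg across the 19938 genes, and a call needs an adjusted p under 0.05 and a fold above 1.5.

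The block follows the numbering of the labels. Deviations from the group means of same-numbered arrays correlated over genes at 0.353 to 0.648 in the Y721F time course (0.648 between 60 and 180 min), at 0.487 to 0.734 in WT and at 0.12 in Y721F steady state.

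Genes are named by rule: the 15 largest rises and the 15 largest falls among calls of equal sign in both series, up to 5 called members per list, and a set of genes given whatever their values. Genes outside the rule, among them Etv5, Txnip, Klhl24, Egr3, Btg2, Rhou, Dkc1, Nop56 and Polr1b, were chosen after their values were seen. The comparison, the 21 gene lists and the 6 marker lists were chosen with earlier results of these data known. The alternatives were no block, quantile normalization, dim genes left out (mean below 4.87, the 20th percentile), an intensity trend with a robust prior, the mean of a gene's probe sets, the design text's cutoff, the Y721F arrays alone and each array left out in turn. The fitting script was tested on simulated data. Promoters came from the RefSeq table of GRCm38.p6, matched by symbol.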

Additional observations from a re-analysis of the deposited data

How the results depend on the processing

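The direction of all 121 called genes was kept under every setting tried, while the count was not. The kept direction was largely fixed in advance. Settings that changed only the model or the cutoff used the same signals and gave the same differences. All 121 also shared a sign in both series before any array was left out. For Y721F cells at 180 against 60 min, 121 genes became 6 without the replicate block, 585 with the cutoff of the series' design text (unadjusted p), 402 with the Y721F arrays alone, and 4 to 67 when 1 array was left out. With the 4 arrays of the comparison alone, an alternative added after seeing the data that leaves 1 residual degree of freedom, limma called 0 genes, with 3407 at an unadjusted p under 0.05. Quantile normalization gave 96, leaving out dim genes 128, the trend 179 and the mean of probe sets 120. For the difference between the lines, 0 became 91 with the design text's cutoff and 0 to 2 when 1 array was left out. The WT count of 52 became 5 without the block, 28 with quantile normalization (8 higher and 20 lower, against 9 and 43), 285 with the design text's cutoff and 3 to 257 when 1 array was left out. The count of 1134 between grown and starved Y721F cells was 119 to 1364 when 1 array was left out, and 985 without the block. The blocked fit is the one reported, and the cause of these shifts was not tested.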

Other observations

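Some zinc finger genes with Zfp names were called higher. Of 317 measured, 5 rose from 60 to 180 min in Y721F cells (1.58%, against 0.216% of all genes). None of the 317 fell (0), near the 0.391% of all genes, and their median difference was 0.05. Zfp566 read 6.14 and 6.58 at 60 min and 7.40 and 7.60 at 180 min, and Zfp930 read 7.91 and 8.40 against 9.21 and 9.33, so neither overlapped between the times. Their rises were 1.14 (SE 0.17, limma adjusted p = 0.0147) and 1.11 (SE 0.16, adjusted p = 0.0144). Zfp72 was lower at 60 min (4.75 and 5.74) than before CSF-1 (6.37 and 6.50) and read 6.16 and 6.28 at 180 min, a rise of 0.97 (adjusted p = 0.0387). The other two were Zfp462 and Zfp961. This name group was picked after the calls were seen.

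Csrnp1 and Rgs20, outside the lists, were among the 15 largest falls and the 15 largest rises. Csrnp1, a nuclear protein with a cysteine and serine rich region, read 8.91 and 8.16 at 60 min and 6.84 and 7.04 at 180 min, close to its 6.77 and 6.92 at 0 min. It fell by 1.59 on the log2 scale (SE 0.20, adjusted p = 0.00827). Rgs20, a regulator of G protein signalling, had read 5.76 to 6.11 in all 6 arrays up to 60 min and read 7.02 and 6.63 at 180 min, a rise of 0.96 (SE 0.17, adjusted p = 0.0343).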
